A study of Homo sapiens with 8 samples.

Results

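Positions that carried a significant cross-link in both dyskerin iCLIP libraries, and in no GAR1 or immunoglobulin (IgG) library, were collected from nuclei of U2OS cells, a human osteosarcoma line. There were 212290 such positions, of 258537 that both dyskerin libraries shared (82.1%) and of 1623913 called in any library of the series. A position is a single nucleotide on 1 strand, and the members were selected on the calls themselves, so their presence in dyskerin and absence elsewhere is the rule and not a result. "Dyskerin alone" refers to the nucleotide only. A control position lay within 30 nt on the same strand of 41.7% of the members, within 1 nt of 9.56%, and more than 1000 nt from 23.7%, with a median distance of 53 nt.

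All 8 libraries came from U2OS cells, for which the labels name no treatment, and whose RNA contacts were fixed with ultraviolet light before the nuclei were fractionated. There were 2 libraries each of dyskerin (mouse antibody), of GAR1 (rabbit antibody), of mouse IgG run for the dyskerin set and of mouse IgG run for the GAR1 set, and the IgG therefore did not match the GAR1 antibody in species. The study calls its iCLIP experiments independent, while the labels number the replicates without saying whether they were separate cultures, so the spread between them may be technical. U2OS is a single tumour line, and more cross-linking of an RNA cannot be told apart here from more of that RNA in the nucleus.

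Dyskerin is the pseudouridine synthase of the H/ACA ribonucleoprotein complex, in which a guide RNA places the enzyme on the uridine to be modified. GAR1 is another core protein of this complex, and the guides are the H/ACA small nucleolar RNAs (snoRNAs) and those small Cajal body RNAs (scaRNAs) that are of the H/ACA type. In iCLIP, reverse transcription tends to stop at the cross-linked nucleotide, so the base before the start of a cDNA marks the contact, and the number of cDNAs at that base is its strength.

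The sequences below show the position with most dyskerin cDNAs in the leading exonic, intronic and non-coding genes, 10 nt on either side, as DNA letters of GRCh38 read 5′ to 3′ on the strand of the RNA. The capital marks the cross-linked base.
DST: cgggacccatTttcaagaagg
MKI67: ttggaagcttTatgagtcagt
SRRM2: cctgtggagcGtcgccgtccc
AHNAK: tgagatgaacAtcaaagtccc
CENPF: tcagtttattTacaaatgttg
KTN1: ttcgtgagcaGatggaggcag
NTM: tgaaaagttcCatagagaact
GPHN: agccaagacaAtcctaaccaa
DCBLD2: ggagcgcctcTtcccagctgc
MALAT1: gatagaaaaaTataaagccaa
LINC02476: ccacaaagcaTttaatagtca
TENM3-AS1: cttgaagatgTtcggaagttg

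The position in MALAT1 (chr11:65499953, plus strand, in the exon of this nuclear lncRNA) was the strongest of all members, with 179 cDNAs in the first dyskerin library and 204 in the second. The one in the coding sequence of SRRM2 (chr16:2770423, plus strand) had 14 and 23 cDNAs. DST (chr6:56597871, minus strand, coding sequence) had 6 and 15 cDNAs. Thus the leading mRNA positions held an order of magnitude fewer cDNAs than that of MALAT1. In the coding sequences of MKI67 (chr10:128115687, minus strand), AHNAK (chr11:62531980, minus strand) and KTN1 (chr14:55633255, plus strand), the counts were 14 and 12, 15 and 4, and 7 and 18. CENPF had 9 and 13 cDNAs at chr1:214613720, plus strand, in its 5′ untranslated region (5′UTR). All were at 0 in the 6 control libraries, as the rule requires, yet the nearest control position lay 1 nt away in DST, 6 nt in MALAT1 and CENPF, and 489 nt in SRRM2. The intronic positions were at chr11:131704838 in NTM (15 and 33 cDNAs, plus strand), chr14:66706359 in GPHN (9 and 10, plus strand) and chr3:98838500 in DCBLD2 (20 and 8, minus strand). Those in lncRNA introns were at chr7:119794385 in LINC02476 (7 and 14 cDNAs, minus strand) and chr4:182077072 in TENM3-AS1 (9 and 12, minus strand). The counts of the 2 libraries differed by up to severalfold at a single position, in either direction.

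Most members were weak. The members held 370857 cDNAs in the first dyskerin library and 391142 in the second, 21.9% and 20.9% of all cDNAs at called positions there. This came to 1.75 and 1.84 cDNAs per member, whereas positions that IgG also held had 12.4 and 15.5. A single cDNA in each library made up 83661 members (39.4%), a summed count of 10 or more was found at 5446 (2.57%), and 50 or more at 71. Across the members, the counts of the 2 libraries had a Spearman correlation of 0.266 and a Pearson correlation of 0.339 on the log2 scale. Both are descriptions over positions, most of which hold few cDNAs. The share of members among positions of both dyskerin libraries fell with the count, as the plot of sets by cDNA count shows. It was 93.8% at 2 summed cDNAs, 88.5% at 3 to 4, 73.0% at 5 to 9, 39.1% at 10 to 19, 9.13% at 20 to 49 and 1.93% at 50 or more.

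**Figure D1:**
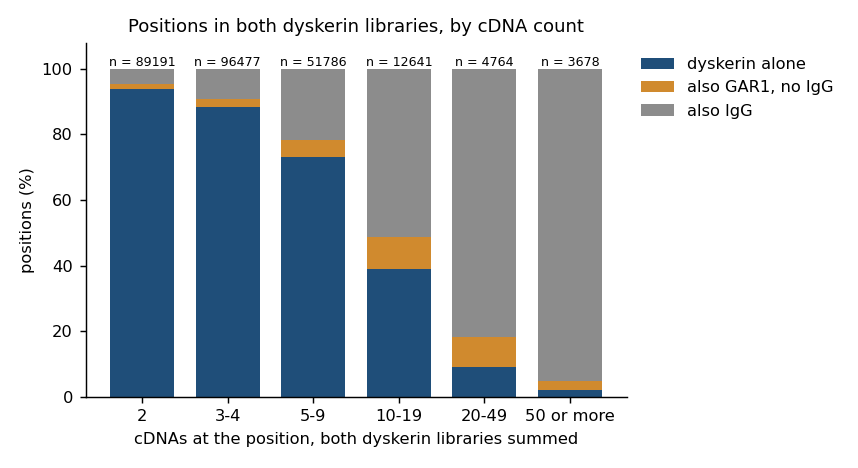
Share of the positions called in both dyskerin libraries (%, vertical axis) that were dyskerin alone, also in GAR1 but not IgG, or also in IgG, by the cDNAs summed over both dyskerin libraries (horizontal axis); n is the number of positions in each bar. Dyskerin alone made up 93.8% at 2 cDNAs and 1.93% at 50 or more.

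Around the threshold of the rule, 30356 positions were kept out by a single control library, and 19871 of these by a single cDNA there. The first IgG library of the dyskerin set accounted for 16753 of the 19871, and the other 5 control libraries for 22 to 2470 each. These positions just outside the rule had a median of 4 summed dyskerin cDNAs, against 3 for the members, and a mean of 5.59, against 3.59. Absence from a control means that no position was called there, and the controls were unequal in what was called. The dyskerin libraries had 902977 and 925145 positions, the GAR1 libraries 24810 and 53445, the IgG libraries of the dyskerin set 79451 and 2954, and those of the GAR1 set 15074 and 2747. Without the first IgG library of the dyskerin set, there were 237209 members.

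To measure presence and absence in libraries that did not choose the positions, libraries of 1 replicate number were used to choose and those of the other to measure. Of 847165 positions in the first dyskerin library that no control library numbered 1 held, 25.6% were also called in the second dyskerin library, 0.833% in the second GAR1 library, and 0.0157% and 0.00897% in the second IgG libraries of the dyskerin and GAR1 sets. Of 898830 positions chosen in the second libraries, 26.5% were found in the first dyskerin library, 0.147% in the first GAR1 library, 3.95% in the first IgG library of the dyskerin set and 0.0543% in that of the GAR1 set. Most of what 1 dyskerin library called outside the controls was thus not called again at the same nucleotide, and the share found in a control followed the number of positions in that control. Dyskerin positions that a control held came back more often, at 74.4% and 76.6% in the other dyskerin library, and at 30.2% and 58.2% in the other GAR1 library. The replicate numbers only name the libraries here and do not pair them.

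The members lay almost wholly in mRNA and lncRNA genes. GAR1 shares the guide RNAs with dyskerin, and the rule left out every nucleotide called in GAR1 or IgG. The low share of guide RNAs among the members is therefore not independent of the rule. Protein-coding genes held 187127 members, 88.15% of all (Wilson 95% confidence interval 88.0 to 88.3), and 86.4% and 87.2% of the member cDNAs in the 2 dyskerin libraries. For dyskerin positions also in GAR1 but not IgG the share was 44% of 8102, and for those also in IgG it was 60.6% of 38145. Positions seen in 1 dyskerin library and in no control, of which there were 1277391, had 88.84%. The RNA classes of the members thus lay close to those of the unreproduced positions. Between sets made from the same libraries no test was run, because 2 libraries against 2 cannot give an exact two-sided p below 0.33, and 2 pairs none below 0.5. Intervals cover counting error only, and neighbouring positions are not independent.

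lncRNA genes held 20975 members (9.88%), of which 17294 lay in introns and 3681 in exons, and pseudogenes held 3469 (1.63%). H/ACA snoRNAs, the main guides of dyskerin, held 89 members in 48 RNAs (0.0419%), against 19.1% of the positions also in GAR1 and 14.3% of those also in IgG. In other words, 1.25% of the 7098 positions that both dyskerin libraries shared in H/ACA snoRNAs were members, against 87.5% of the 213819 in protein-coding genes. Of the 7098, the rule left out 5464 that were also in IgG and 1545 that were also in GAR1 but not IgG. C/D snoRNAs, the guides of ribose methylation, had 117 members (3.37% of their 3477 shared positions), scaRNAs 58 (3.93% of 1475) and small nuclear RNAs (snRNAs) 142 (20.7% of 686). The snRNA class includes gene copies, where reads with several alignments were kept and may belong to other copies. In the copies RNU6-537P and RNU6-738P, all 10 and 7 shared positions were members, against 3 of 39 in RNU4-2 and 12 of 73 in RNU12. The classes also differed in strength. Positions of both dyskerin libraries held 27.2 and 37.8 cDNAs on average in H/ACA snoRNAs, against 1.95 and 2.12 in protein-coding genes. The part of strength in these shares was not tested.

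**Figure D2:**
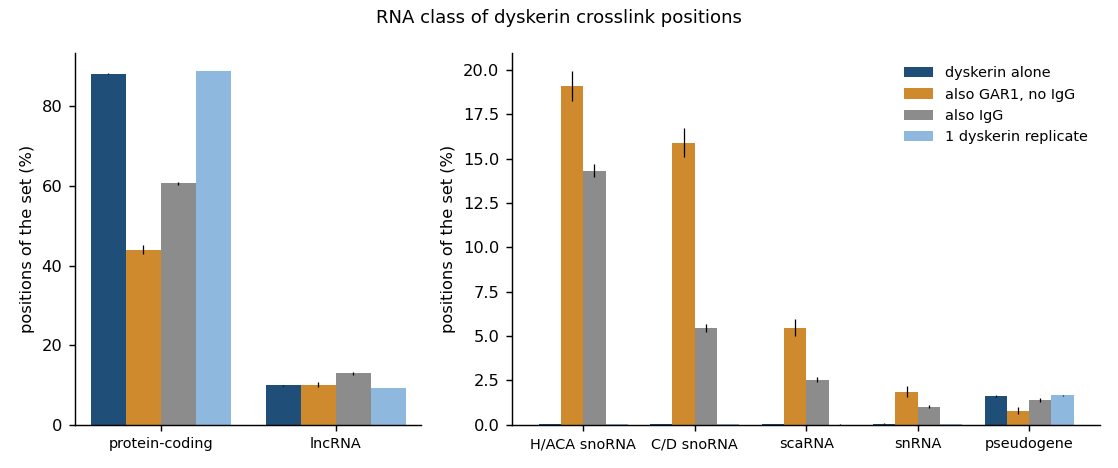
Share of the positions of each set (%, vertical axes) in RNA classes of GENCODE, for positions of dyskerin alone, also in GAR1, also in IgG, and in 1 dyskerin replicate without a control; bars are shares and error bars Wilson 95% intervals. Protein-coding genes held 88.15% of dyskerin alone, and H/ACA snoRNAs 0.0419%, too little to be seen on this scale.

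Within protein-coding genes, coding sequence was the region most densely covered by members. It held 96777 members (51.7%, Wilson 95% confidence interval 51.5 to 51.9), in 4365 genes, or 7.37 per kb. Introns held 84575 (45.2%) in 3072 genes, at 0.155 per kb. Each density is over that region in all 5494 protein-coding genes with a member. The 5′UTRs held 2805 (1.499%) at 1.11 per kb and the 3′UTRs 2970 (1.59%) at 0.202 per kb. Per kb, members were therefore more frequent in 5′UTRs than in 3′UTRs, although their numbers were alike. Both traits were also seen in the other sets, over the genes of each. Coding sequence held 24.1 per kb for positions in 1 dyskerin library, 1.01 for those also in GAR1 and 1.89 for those also in IgG. Their 5′UTRs held 4.32, 0.337 and 0.273 per kb, and their 3′UTRs 0.962, 0.049 and 0.041. Of the cDNAs at protein-coding members, coding sequence held 52.1% in the first dyskerin library and 57.04% in the second, and introns 44.8% and 39.8%. Positions in 1 dyskerin library had 44.5% in coding sequence and 51.7% in introns. Those also in IgG had 44.7% and 53.2%, and those also in GAR1 62.6% and 32.0%. When replication was not asked, positions of the first library alone had 40.96% in coding sequence and those of the second 51.3%, so the spread between libraries was as wide as the differences between most of these sets.

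Along the coding sequence of the canonical transcript, where 95569 members could be placed, the last decile of length held fewest. It had 6.15%, against 9.05% in the one before it, 11.8% in the second and 9.83% in the first. The first base of the codon carried 38.3% of the members, the second 29.3% and the third 32.5%. Near junctions between exons members were somewhat sparse, as 3.84% lay within 5 nt of one, against 5.68% of all nucleotides of the same coding sequences weighted by members. Positions in 1 dyskerin library had a like profile, with 7.03% in the last decile, 36.1% at the first codon base and 3.78% within 5 nt of a junction (5.73% of all nucleotides). In introns of canonical transcripts, 77920 members were placed, and the third and the fourth deciles from the 5′ splice site held 14.03% and 14.3%, whereas the first held 5.14%. The final 100 nt before the 3′ splice site, which include the polypyrimidine tract, held 5.52% of the intronic members and the initial 100 nt 0.691%, against 1.55% of all intronic nucleotides for either stretch. For positions in 1 dyskerin library these values were 6.94% and 1.13%, against 1.60%, and for those also in IgG 2.77% and 0.708%, against 1.40%.

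**Figure D3:**
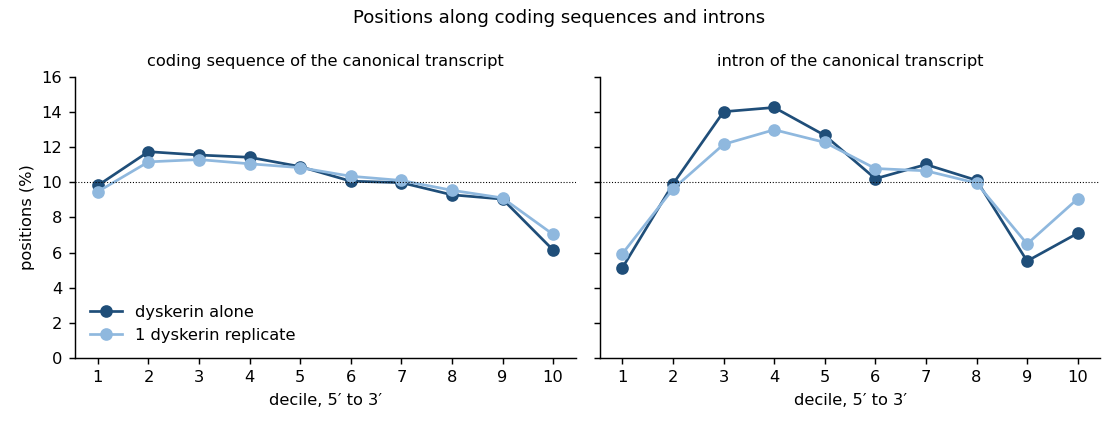
Share of positions (%, vertical axes) in successive deciles of the coding sequence (left) and of introns (right) of canonical transcripts, 5′ to 3′, for positions of dyskerin alone and of 1 dyskerin replicate; the dotted line is 10%, an even spread. The last decile of the coding sequence held 6.15% of dyskerin alone, and the fourth decile of introns 14.3%.

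Ultraviolet light cross-links uridine more readily than other bases, and the members were rich in it. Uridine stood at 37.2% of all member positions. In coding sequence it stood at 33.9% (Wilson 95% confidence interval 33.6 to 34.2), against 20.98% of all nucleotides of the same coding sequences weighted by members. In introns it was 40.3%, against 31.5%, in 5′UTRs 40.2%, against 21.4%, and in 3′UTRs 46.8%, against 28.97%. Guanosine was the base most reduced in introns, at 12.8%, against 20.5%. Uridine rose with the number of cDNAs at the position. In coding sequence it stood at 29.2%, 34.7%, 39.5% and 42.9% for summed counts of 2, of 3 to 4, of 5 to 9, and of 10 or more, and in introns at 35.0%, 41.6%, 49.6% and 59.5%. Uridine was not particular to the members. Positions also in IgG had 31.7% in coding sequence, against 20.7%, and 42.6% in introns, against 31.5%. Those also in GAR1 had 29.7%, against 20.9%, and 41.4%, against 29.8%. Those in 1 dyskerin library had 28.1%, against 21.5%, and 32.3%, against 31.4%.

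The bases just downstream of the members departed further from the composition around them. At the first base after the cross-link, which is the first base of the cDNA, guanosine stood at 6.61% in coding sequence and 3.12% in introns, and at the second base at 8.44% and 3.93%. Uridine was the most frequent base at both, with 39.7% and 45.5% at the first and 35.3% and 41.1% at the second. Cytidine stood at 34.2% and 32.6% at the second, above its own values at all other places in the window. In all, 85.2% of the members in coding sequence and 93.1% in introns had no guanosine at these 2 bases, against 55.1% and 67.2% at the bases 10 and 9 nt upstream. Of the sequences above, those of SRRM2, AHNAK, GPHN, DCBLD2 and TENM3-AS1 have uridine and then cytidine right after the capital, and none of the 12 has guanosine at either base. Guanosine was scarce at these bases in positions that were not members, too. Without guanosine at the 2 bases were 88.9% and 96.2% of the positions also in IgG, 83.7% and 84.8% of those also in GAR1, and 74.4% and 83.4% of those in 1 dyskerin library. Guanosine at the first base stood at 10.6% and 10.3% over all coding positions of the 2 dyskerin libraries, at 13.9% and 12.2% in GAR1, and between 10.4% and 11.8% in the 4 IgG libraries, against 25.6% to 27.3% of the same coding sequences. In introns it stood at 6.95% and 6.27% in the dyskerin libraries, at 12.9% and 10.99% in GAR1, and between 5.37% and 12.4% in the IgG libraries, against 20.2% to 22.4% of the same introns, so it was below the composition in all 8 libraries in both regions. In coding sequence, cytidine at the second base was above the composition in all 8 libraries. It stood at 30.1% and 30.2% in the dyskerin libraries (23.7% and 23.2% of the same coding sequences) and at 25.95% and 26.9% in GAR1 (21.9% and 23.1%). Among the IgG libraries it ranged from 23.5% (21.2%) to 31.0% (22.2%). In introns, cytidine at the second base was not above the composition in each library. In introns it stood at 27.1% and 27.7% in the dyskerin libraries (19.6% of the same introns in both), at 19.4% and 19.5% in GAR1 (21.01% and 21.18%), at 30.3% and 18.6% in the IgG libraries of the dyskerin set (19.3% and 20.4%), and at 22.8% and 24.2% in those of the GAR1 set (20.9% and 20.2%).

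**Figure D4:**
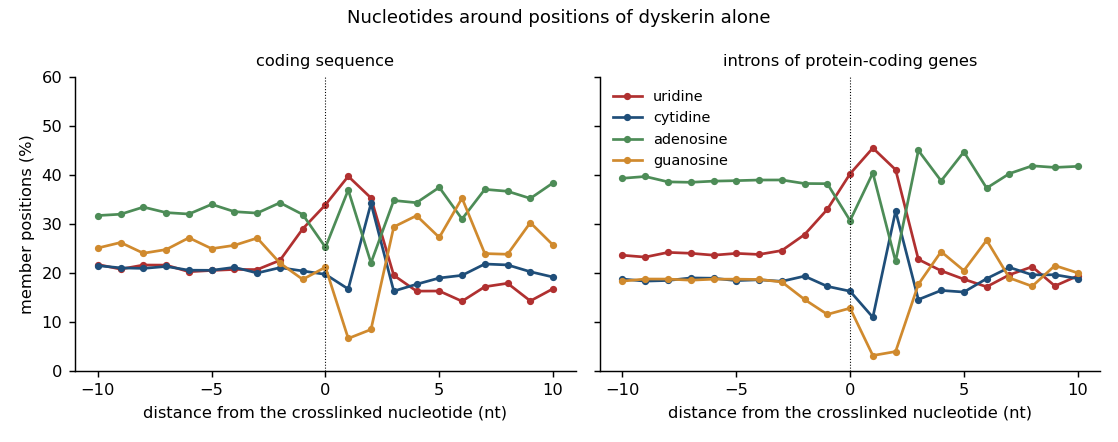
Share of members (%, vertical axis) with each nucleotide at distances from 10 nt upstream to 10 nt downstream of the cross-linked base (horizontal axis, dotted line at 0), in coding sequence and in introns. Guanosine fell to 6.61% and 3.12% at the first base downstream, and cytidine peaked at the second, at 34.2% and 32.6%.

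Taken as 4-letter words from the base before the cross-link to the second base after it, TTTC was the most frequent in coding sequence, at 2.07% of the members, against 0.382% of the words that start 10 nt upstream. TTAC (1.53% against 0.236%) and TTAT (1.49% against 0.269%) exceeded their upstream share by factors of 6.48 and 5.54, above the 5.40 of TTTC. In introns TTTT led with 3.41%, against 0.913%, while TTTC had 2.41%, against 0.430%. In coding sequence, words with guanosine at their last 2 letters were at the other end, with 3 members each for CCGG and GCGG. In introns GCGG and GGCG were among the words with 0 members. No word made up more than a few percent of the members.

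Members often lay side by side. Of all members, 31.5% had another on the adjacent nucleotide, and 55.6% had one within 3 nt, whereas 9.61% had none within 30 nt. There were 519 runs of 5 or more adjacent members, 438 of them in protein-coding genes. The longest spanned 23 nt in MALAT1 (chr11:65500133-65500155), with 510 and 570 cDNAs in the 2 dyskerin libraries. Runs of 17 nt were found in SCARNA2 (chr1:109100419-109100435, 326 and 612 cDNAs) and in the coding sequence of SRRM2 (chr16:2768154-2768170, 62 and 52 cDNAs). Adjacent positions were counted separately, so the number of members is not a number of contacts.

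Members fell in 6477 genes, among them 5494 of the 20046 annotated protein-coding genes (27.4%). The median gene held 7 members, 942 genes held 1, and 463 held 100 or more. The 10 genes with most members held 7.17% of them, and the top 100 held 27.4%. No control position lay anywhere in 2019 of the genes, which together held 11554 members (5.44%). The cell adhesion gene AMIGO2 had the most member cDNAs of these, with 74 members (133 and 180 cDNAs), followed by SMARCA4, the ATPase of a chromatin remodelling complex, with 87 (132 and 146 cDNAs).

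DST, PLEC, MKI67 and SRRM2 held the most exonic member cDNAs of the protein-coding genes, as the plot of leading genes shows. DST, which encodes the cytoskeletal linker dystonin (chr6:56457987-56954830), had 2016 exonic members with 3948 cDNAs in the first dyskerin library and 4444 in the second. PLEC, encoding the related linker plectin, had 1037 exonic members (2533 and 2122 cDNAs). MKI67, encoding the proliferation marker Ki-67, had 1039 (2280 and 2317 cDNAs). Their transcripts are long, and per kb of exon they had 60.2, 61.3 and 81.7 exonic members, which set MKI67 above the other 2. SRRM2, a scaffold of nuclear speckles, had 705 exonic members (1795 and 2131 cDNAs, 74.9 per kb), and the kinetochore gene CENPF 787 (1489 and 1664 cDNAs, 76.5 per kb). AHNAK, a very large scaffold protein, had 885 (2115 and 1276 cDNAs, 46.0 per kb). KTN1, the kinesin receptor kinectin, had 624 (1168 and 1776 cDNAs, 116.7 per kb). Of these genes AHNAK was higher in the first library and KTN1 in the second, by about the same factor. NCL, encoding nucleolin, had 367 exonic members (879 and 1425 cDNAs), the translation initiation gene EIF3A 440 (931 and 1335 cDNAs), and the chromatin regulator gene ANKRD11 521 (1087 and 1128 cDNAs).

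Each of these 10 genes also held dyskerin positions that a control shared. Members made up from 72.4% of the positions of both dyskerin libraries in NCL to 84.5% in CENPF, next to 82.1% over all positions. Over all called positions of the gene, DST had 12451 and 13747 cDNAs in the dyskerin libraries, 49 and 245 in GAR1, 1592 and 11 in the IgG libraries of the dyskerin set, and 6 and 0 in those of the GAR1 set. The first IgG library of the dyskerin set held cDNAs of all 10 genes, from 260 in EIF3A to 1592 in DST, and its replicate held at most 11. Per kb of exon, among genes with at least 50 exonic members, TPM2, a tropomyosin, was highest (142 per kb, 223 exonic members with 515 and 721 cDNAs). DHRS2, a dehydrogenase, followed with 121 per kb (206 members, 566 and 575 cDNAs), and then KTN1. The median over the 4531 protein-coding genes with an exonic member was 1.52 per kb.

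**Figure D5:**
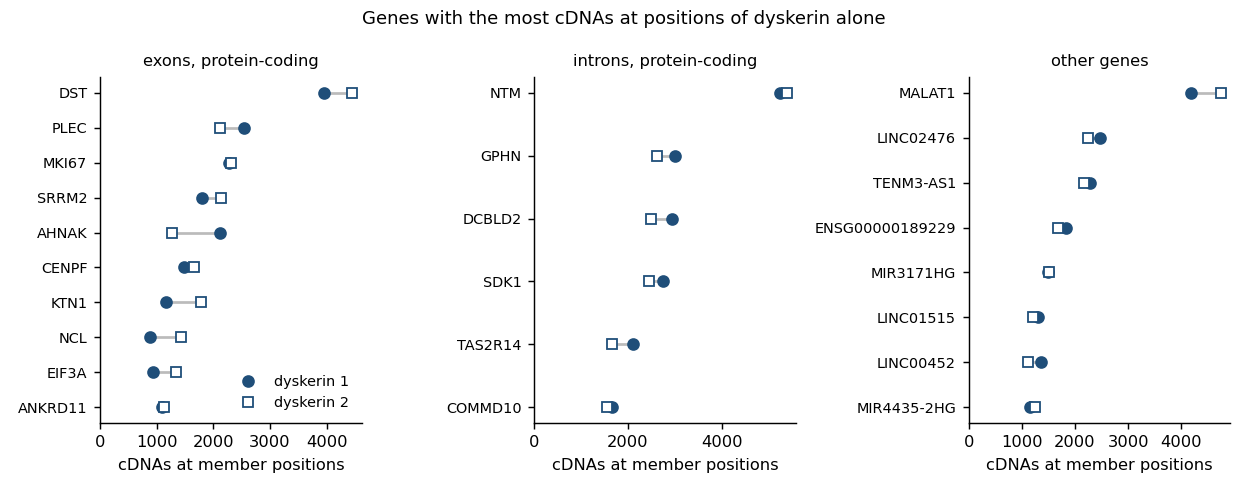
cDNAs at positions of dyskerin alone (horizontal axes) in the first (filled) and second (open) dyskerin library, for the 10 protein-coding genes with most in exons, the 6 with most in introns, and the 8 other genes with most. DST had 3948 and 4444 in exons, NTM 5248 and 5402 in introns, and MALAT1 4187 and 4744.

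NTM, GPHN and DCBLD2 held the most intronic member cDNAs. NTM, encoding the adhesion protein neurotrimin (chr11:131370478-132336822), had 2881 intronic members with 5248 and 5402 cDNAs, the most of any gene, and only 79 in exons. GPHN, encoding gephyrin, which anchors receptors at inhibitory synapses, had 1632 (3004 and 2615 cDNAs). The transmembrane receptor gene DCBLD2 had 1243 (2935 and 2488 cDNAs). These genes differ in length, and per kb of intron they held 2.995, 2.45 and 12.5 members, so those of DCBLD2 were most closely spaced, against 0.155 per kb over the introns of all protein-coding genes with a member. SDK1, another adhesion gene, had 1455 (2755 and 2441 cDNAs) and COMMD10 890 (1652 and 1545 cDNAs). All 964 intronic members assigned to the taste receptor gene TAS2R14 (2106 and 1664 cDNAs) also lay in another gene of the same strand, so which of them was transcribed there could not be told apart. Overlapping genes concerned 6.90% of all members.

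Outside protein-coding genes MALAT1 stood first by cDNAs, with 278 members that held 4187 and 4744 cDNAs. Yet members were only 22.5% of the 1236 positions that both dyskerin libraries shared in it, and the central 90% of them spanned 5.40 kb. The members held 5.91% and 5.67% of the MALAT1 cDNAs of the dyskerin libraries, while positions that a control also held had 93.1% and 90.9%. The whole gene had 70904 and 83707 cDNAs in dyskerin, 2680 and 6585 in GAR1, 13435 and 667 in the IgG libraries of the dyskerin set, and 1125 and 144 in those of the GAR1 set. NEAT1, the lncRNA of paraspeckles, had 232 members (857 and 734 cDNAs), 58.2% of its shared positions. LINC02476 had 1127 members (2466 and 2242 cDNAs), TENM3-AS1 1188 (2274 and 2172), and an lncRNA gene listed as ENSG00000189229 933 (1828 and 1679). These 3 were intronic in all but 6 to 22 members each. MIR3171HG, which GENCODE lists among pseudogenes, LINC01515, LINC00452 and MIR4435-2HG had 530 to 828 members each, and between 70.7% and 84.2% of their shared positions were members.

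The 71 members with 50 or more summed cDNAs lay in 13 genes, mostly outside mRNAs. They comprised 48 in 2 lncRNAs, 8 in SCARNA2, 5 in snRNAs, 4 in C/D snoRNAs, 4 in protein-coding genes, 1 in an H/ACA snoRNA and 1 in a mitochondrial RNA. A control position lay within 30 nt of 64 of them and within 5 nt of 25. The strongest positions in an H/ACA snoRNA, a C/D snoRNA, a scaRNA and an snRNA were chosen after their values were seen. They are printed with the cross-linked base in capitals.
SNORA26: ctctttggatCctgtctggag
SNORD2: tcgggactgaCctgaaatgaa
SCARNA2: atgaaaagctCtcctcctgcg
RNU12: gacccgcctaCtttgcgggat

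RNU12, the U12 snRNA of the minor spliceosome, had 155 and 98 cDNAs at chr22:42615360 (plus strand). SCARNA2 had 69 and 136 at chr1:109100430 (plus strand). In SNORD2, a C/D snoRNA, there were 77 and 54 at chr3:186784830 (plus strand), and in SNORA26, an H/ACA snoRNA, 13 and 46 at chr4:52713352 (plus strand). The nearest control position lay 27, 8, 1 and 2 nt away from these. Members of H/ACA snoRNAs were led by SNORA6 with 12 (101 and 130 cDNAs), of 109 positions shared by both dyskerin libraries. SCARNA2 had 19 of 79 (337 and 642 cDNAs) and RNU12 12 of 73 (302 and 223 cDNAs). In each of these 3 RNAs most of the shared positions were also held by a control. SNORA66, an H/ACA snoRNA, and RMRP, the RNA of the MRP ribonuclease, had 0 members, although dyskerin held 4102 and 6915 cDNAs on SNORA66 and 184 and 251 on RMRP.

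Few strong members were remote from every control position, and 5 of the 71 lay more than 1000 nt from one. The strongest 4 such positions, again chosen after seeing their values, are shown with the cross-linked base in capitals because no control signal surrounded them.
RNU6-1251P: gcttcagcagCatatatacta
TLR1: ctcaggacccAtcatggaaga
RCC1: ttctctctccTttttggagac
RNU6-738P: actttagtagTacatatataa

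RNU6-1251P had 26 and 57 cDNAs at chr20:43473029 (plus strand), 14310 nt from the nearest control position, and RNU6-738P 14 and 43 at chr5:27111585 (plus strand). Both are copies of the U6 snRNA, and since reads with several alignments were kept, their cDNAs may belong to other copies. TLR1 had 36 and 44 cDNAs at chr4:38810578 (minus strand) in an intron, and RCC1, which encodes a nucleotide exchange factor for Ran, 25 and 41 at chr1:28506045 (plus strand) in a 5′UTR, 1307 nt from a control position. Summed over both libraries, these counts were higher than those of the leading positions in DST, MKI67 or SRRM2. The assignment puts UTRs before exons of lncRNA genes. The label of RCC1 therefore does not mean that no lncRNA exon covers that base.

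The lists of functional groups differed in how many genes held a member. Of 50 splicing and speckle protein genes, 49 did (98.0%), against 27.4% of all annotated protein-coding genes, whether expressed or not. The median was 20.5 exonic members per kb over the 49, next to 1.52 over all protein-coding genes with an exonic member. SRRM2 and the splicing regulator RBM25 (432 members, 927 and 1373 cDNAs) led the list. Of 30 nucleolar and H/ACA protein genes 24 did (median 10.1 per kb), led by MKI67 and NCL. DKC1, the gene of dyskerin itself, had 15 members, all exonic, with 47 cDNAs in each library. Among cytoskeleton and extracellular matrix genes 43 of 50 held a member (median 9.87 per kb), led by DST and PLEC, and ACTB, which encodes β-actin, had 240 (447 and 589 cDNAs). The chaperones had 27 of 32 (6.85 per kb), led by HSP90B1 with 235 members (548 and 626 cDNAs). HSP90AB1 had 134 (358 and 550 cDNAs), and in it only 46.5% of the shared positions were members. Over whole lists, members were 77.4% of the shared positions for splicing and speckle proteins and 79.3% for nucleolar and H/ACA proteins. They were 83.0% for cytoskeleton and matrix and 70.3% for chaperones, next to 82.1% over all positions.

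Of 79 annotated cytosolic ribosomal protein genes 49 (62.0%) held a member, against 27.4% of all annotated protein-coding genes, whether expressed or not. Their median was 3.38 per kb, and RPL4 led with 86 (166 and 232 cDNAs), followed by RPS24 with 45 (88 and 82 cDNAs). Of 40 translation factor genes 30 did (4.03 per kb). EIF3A and EEF1D, a subunit of elongation factor 1 with 343 members (825 and 900 cDNAs), led this list, and EEF2, the factor of translocation, had 57 (129 and 138 cDNAs). Glycolysis genes had 13 of 17 (2.85 per kb), led by PKM, the pyruvate kinase, with 112 members (203 and 222 cDNAs) and GAPDH with 88 (166 and 234 cDNAs). Only 10 of 51 histone genes held a member, among them the linker histone gene H1-2 with 19 (51 and 63 cDNAs). Members were 87.3% of the shared positions for ribosomal proteins, 80.4% for translation factors, 88.3% for glycolysis and 95.8% for histones. Over all positions the share was 82.1%, and over those in protein-coding genes 87.5%.

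Nuclear and snoRNA-host lncRNAs had 1215 members in 16 of 25 genes, 41.3% of their shared positions. MALAT1, at 22.5%, held 1236 of these positions, whereas in PVT1 (506 members, 1059 and 1160 cDNAs) 71.3% were members. Structured short RNAs had 33 members in 5 of 25 annotated genes, 8.92% of their shared positions. Of these, RN7SK, the RNA that restrains transcription elongation, had 15 (54 and 71 cDNAs). Mitochondrially encoded RNAs had 55 members in 4 of 15 genes, 13.9% of their shared positions. Most lay in the ribosomal RNAs MT-RNR2 with 27 (177 and 171 cDNAs) and MT-RNR1 with 17 (49 and 51 cDNAs). The mitochondrial members were found although the lysates were nuclear fractions.

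Markers of the cell line were checked in the same way. Of 8 osteoblast and mesenchymal markers 6 held a member, against 27.4% of all annotated protein-coding genes. They were led by the collagen gene COL1A1 with 255 (478 and 654 cDNAs) and the intermediate filament gene VIM with 138 (250 and 337 cDNAs). CD44 had 48, FN1 26 and SPARC 17. The osteoblast factor gene RUNX2 had 8, all intronic (12 and 15 cDNAs), and COL1A2 and TWIST1 held none. Of 8 markers of other lineages (blood, epithelium, liver and glia) 0 held one, and no position of both dyskerin libraries lay in them.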

How the data were processed

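The authors deposited, for each of the 8 iCLIP libraries, significant cross-link positions and clusters of them, with counts of cDNAs that were not normalized. By the study's methods and the submitters' processing notes, reads were trimmed with cutadapt, aligned to GRCh38 with STAR 2.7.0e and passed to iCount, which called positions in each library by itself and kept reads with several alignments. The totals per library therefore cover called positions and not sequencing depth, and near-identical genes are uncertain.

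Members were found by chromosome, position and strand with Python 3.11.15, pandas 2.3.3 and numpy 2.4.6. Each position took the gene on its strand among 62700 in GENCODE 44. Short RNAs came first (including 5 nt upstream), then coding sequence, UTRs, other exons and introns. Introns of protein-coding genes came before those of other genes, and the shorter gene was taken where several remained. Coordinates are on GRCh38 and count from 1. Compositions given for comparison use every nucleotide of the same regions of the same genes, weighted by members. Functions were tested on simulated data with known answers. Most positions hold few cDNAs, and intervals are Wilson 95%, for counting error.

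Named genes were the 10 protein-coding genes with most exonic and the 6 with most intronic member cDNAs (mean of both libraries), the 8 other genes with most, the first 2 of each of the 13 lists, and SRRM2, ACTB, EEF2, DKC1, MALAT1, NEAT1, SNORA66 and RMRP, of which some are not reported here. Sequences were shown for the 6, 3 and 3 highest, none from chromosome 8. Genes without a control position, the densest genes, and short RNAs beyond these were named after their values were seen. The members and lists were chosen with earlier results of these data known. No test was run, since the rule used all libraries. Alternatives varied the libraries, the distance to controls, the count threshold, the weighting and the gene assignment.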

Additional observations from a re-analysis of the deposited data

How the results depend on the processing

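No paired analysis was possible because the results come from no test, and the replicate numbers do not pair the libraries. The 212290 members became 123691 when none was allowed within 30 nt of a control position, and 45844 and 2695 when at least 2 and at least 5 cDNAs were asked of both dyskerin libraries. Leaving out 1 library at a time gave 212326 to 862024 members, the highest without the first dyskerin library, where 1 library suffices. Without a control library the count stayed within 1.5 times. The share in protein-coding genes, 88.15% by position, lay between 87.62% and 89.55% with 1 library left out. It was 89.11% and 90.11% without members within 5 and 30 nt of a control position, 88.87% outside control clusters, 89.2% with positions in a single gene, 86.81% when weighted by cDNAs, and 87.44% and 80.37% with at least 2 and 5 cDNAs. The coding share, 51.72%, lay between 40.96% and 51.97% with 1 library left out, and was 57.76% and 71.33% with at least 2 and 5 cDNAs. The uridine share, 37.19%, lay between 32.16% and 37.32% with 1 library left out. It was 38.55% and 41.52% without members within 5 and 30 nt of a control position, 38.19% outside control clusters, 39.68% when weighted, and 43.77% and 46.2% with at least 2 and 5 cDNAs. The other settings moved these shares by less than the SD between the dyskerin libraries. Why the values moved was not tested. Weighting gives no number of members, and leaving out repeats was not run, as the genome used here does not mark them. Most members rest on 1 or 2 cDNAs a library, so single positions are uncertain and sums over genes less so.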
